A study of Homo sapiens with 22 samples.

Results

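The genes of the cytosolic ribosomal proteins were examined in MOLM-13 and NB4 cells treated with FP54, a degrader of the RNA demethylase FTO. Members were taken by symbol: RPL or RPS followed by a number, with or without a closing A or X, together with RPLP0, RPLP1, RPLP2 and RPSA. In each cell line 77 of the 20411 genes of the table matched, 46 of the large and 31 of the small ribosomal subunit. Of these, 76 had a mean RPKM (reads scaled by gene length and by the library total) of at least 1 over the 6 libraries and were tested, among 9710 (MOLM-13) and 9853 (NB4) tested genes.

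MOLM-13 and NB4 are human acute myeloid leukemia lines, the first with an MLL fusion and the second derived from promyelocytic leukemia. Each was left unmodified in genotype and was treated for 48 hours with 2 μM FP54 or with DMSO, the solvent, and poly(A) RNA was sequenced from 3 libraries per treatment and line. The study sequenced RNA to learn how the FTO degrader slows the growth of leukemia cells, and it went on to follow factors that assemble ribosomes, for which the proteins of the finished ribosome are the counterpart. The labels do not say that the 3 libraries of a group came from separate cultures, so the p-values below measure the spread between these libraries only.

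The ribosome joins ribosomal RNAs to a single copy of most ribosomal proteins, so the proteins are needed in matched amounts. The small subunit reads the mRNA and the large subunit forms the peptide bond and holds the exit tunnel of the new chain. Most ribosomal protein mRNAs begin with a terminal oligopyrimidine run, a C at the first base followed by more C and T, through which their translation follows mTOR signalling. In blood cells these genes are known from Diamond-Blackfan anaemia, an inherited failure of red cell production caused by mutation of any of several of them.

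The run was looked for around the transcript starts of RefSeq (GRCh38.p14), on the coding strand only. It was counted from a C within 5 bases of a start, with at least 4 more C or T directly after it. The base before that C was not checked, so a run can be part of a longer one, as in RPL36A below. Of the 62 members with an entry, 53 (85.5%) held one at a start, 33 of 38 in the large and 20 of 24 in the small subunit, against 25.2% of 27305 genes of the same table. The median run was 11 bases in these members and 6 bases in all genes with one. The windows below, 10 bases before to 20 bases from the start, belong to the members the results turn on, with the run in capitals. RPS26 is shown because its window held no such run by this rule. A C 6 bases from its start, just outside the limit, is followed by 4 C or T.
RPS27 (chr1:153990752-153990781, plus strand): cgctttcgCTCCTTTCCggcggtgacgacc
RPL12 (chr9:127451387-127451416, minus strand): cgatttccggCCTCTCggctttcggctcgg
RPL39 (chrX:119791611-119791640, minus strand): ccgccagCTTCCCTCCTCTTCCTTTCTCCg
RPL28 (chr19:55385922-55385951, plus strand): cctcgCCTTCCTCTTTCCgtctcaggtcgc
RPL36A (chrX:101391001-101391030, plus strand): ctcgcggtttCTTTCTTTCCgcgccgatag
RPS26 (chr12:56041908-56041937, plus strand): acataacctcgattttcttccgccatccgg
RPL37, which also appears in the results, had no entry in that table. A match is a description of these letters and not of a start used in these cells.

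Library totals, read from the value of 1 read in each RPKM column, were 16299701 to 17346914 (DMSO) and 5829730 to 19191055 (FP54) in MOLM-13 cells, where FP54 replicate 2 was the lowest. In NB4 cells they were 20654055 to 22344265 with DMSO and 10595647 to 13071303 with FP54, so that depth and treatment cannot be told apart there. Despite the lower totals, 3793 to 4138 genes were listed at 0 in the NB4 FP54 libraries and 5363 to 5992 in the DMSO libraries. FTO mRNA, which encodes the protein that FP54 removes, was present in both lines, at 0.90 to 1.13 RPKM in MOLM-13 libraries and 1.95 to 2.86 RPKM in NB4 libraries. The myeloid genes SPI1 and CD33 were detected in both lines. FLT3 (51.1 to 91.8 against 4.46 to 6.04 RPKM) and HOXA9 (19.1 to 25.4 against at most 0.716 RPKM) were higher in MOLM-13 than in NB4. So was MEIS1 (6.05 to 8.40 against at most 0.190 RPKM). Of the markers chosen for NB4, MPO (1082 to 2263 against 3.29 to 18.1 RPKM) and HGF (0.227 to 3.93 against at most 0.124 RPKM) were higher in NB4 than in MOLM-13. The granule genes ELANE (at most 0.218 against 122 to 240 RPKM), PRTN3 (14.7 to 69.0 against 255 to 508 RPKM) and AZU1 (6.70 to 11.7 against 149 to 251 RPKM) were lower in NB4. Markers of T cells (CD3E) and red cells (HBB) were below 1 RPKM in both lines, and EPCAM, an epithelial marker, was at 7.83 to 11.3 RPKM in NB4 and at most 0.0474 RPKM in MOLM-13. The line of each table was taken from its name and the sample titles, since no column header states it. With ELANE near 0 in NB4, and PRTN3 and AZU1 higher in MOLM-13, the check of the NB4 label by markers is incomplete.

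Ribosomal protein mRNAs were among the most abundant of both lines. They made up 22 of the 50 genes of highest mean RPKM in MOLM-13 and 15 of 50 in NB4, and 56 and 48 of the highest 200. Their median was 284 RPKM in MOLM-13 and 199 RPKM in NB4, and 69 and 60 of the 76 tested members had at least 100 RPKM. In MOLM-13 the most abundant by mean over the 6 libraries were RPS12 (2157 RPKM), RPL13A (2099 RPKM) and the stalk protein RPLP2 (1453 RPKM). In NB4 they were RPS6 (1980 RPKM), the small subunit protein phosphorylated by S6 kinases, RPL13A (1053 RPKM) and RPS12 (992 RPKM). At the low end stood RPL36A (2.24 RPKM), RPS10 (2.82 RPKM) and RPL17 (10.0 RPKM) in MOLM-13, and RPS10 (2.98 RPKM), RPL36A (5.22 RPKM) and RPS29 (11.9 RPKM) in NB4. So the span from lowest to highest member was 963-fold in MOLM-13 and 665-fold in NB4, on a scale per length.

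Part of what these levels rest on lies in the annotation. The exonic length of the members in GENCODE, all transcripts joined, ran from 639 to 9840 bases with a median of 3228 bases, and an RPKM divides by that length whatever the length of the transcript in use. All 77 members have pseudogenes named for them, 1588 in total and 14 for the median member, and RPL21, RPL23A and RPL7A have the most (133, 91 and 80). RPS10 shares 31.5% of its exonic bases with RPS10-NUDT3 on its own strand, RPL17 shares 24.9% with RPL17-C18orf32 and RPL36A shares 8.40% with RPL36A-HNRNPH2. In MOLM-13 these 3 had the lowest RPKM of the tested members, and reads on shared bases or on near-identical copies cannot be told apart here. The levels of RPS10, RPL17 and RPL36A are therefore uncertain. In all, 8 of the 77 members share exonic bases with a protein-coding gene on their own strand. Among tested members, RPL36 (17.6%) and RPL26 (14.5%) also share more than RPL36A, and they stood at 512 and 152 RPKM in MOLM-13. The part of sharing in these levels was not tested.

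With DMSO, the ribosomal protein mRNAs were lower in NB4 than in MOLM-13 cells as RPKM. Of the 76 tested members 63 had the lower mean in NB4 and 13 the higher, and the median member stood at 72.4% of its MOLM-13 level. Of all 8849 genes tested in both lines 46.0% had the lower mean in NB4, and their median was 108% of MOLM-13. In 55 members all 3 NB4 libraries were below all 3 MOLM-13 libraries and in 7 all were above, against 34.7% and 41.8% of all genes. RPL7 (27.7%), RPL8 (28.0%) and RPS19 (30.6% of the MOLM-13 mean), the gene most often mutated in Diamond-Blackfan anaemia, were lowest relative to MOLM-13. RPL18 (202%) and RPS26 (195%) were highest. The tables were normalised separately, so these levels are a description and no test was made.

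**Figure D1:**
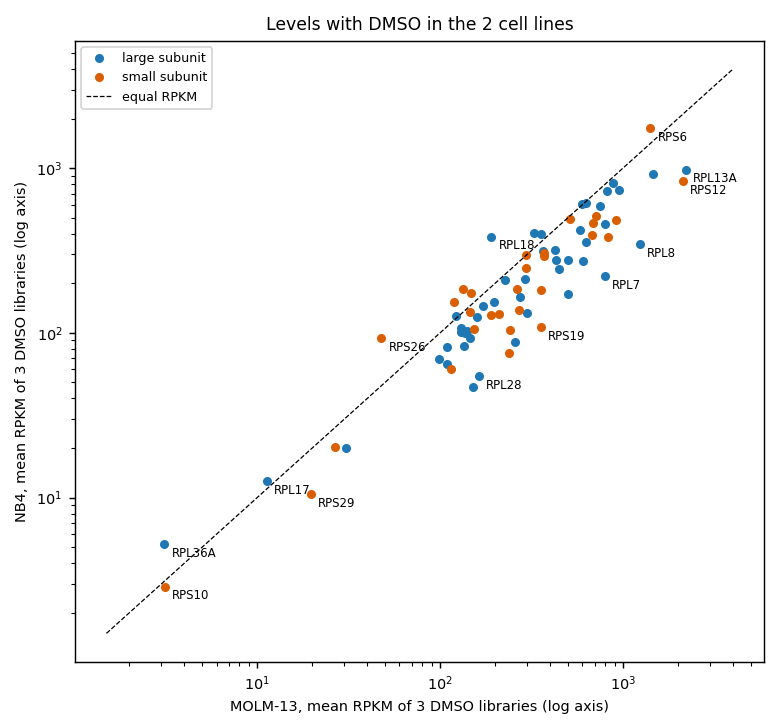
Mean RPKM of each tested ribosomal protein gene over the 3 DMSO libraries of MOLM-13 (horizontal, log axis) and NB4 cells (vertical, log axis), with large subunit genes in blue and small subunit genes in orange. Most points lie below the line of equal RPKM, 63 of 76, while RPL18 and RPS26 lie above it.

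In MOLM-13 cells, FP54 left nearly all ribosomal protein mRNAs close to their DMSO level. The call rule was the cutoff of the study's methods, an unadjusted p below 0.01 and a minimum log2 fold change of 0.5 up or down, applied to limma on log2(RPKM + 0.1) of all tested genes. By this rule no member was called higher, where 9.3% of all tested genes were, and 1 member, RPL36A, was called lower, where 9.04% of all genes were. At a Benjamini-Hochberg adjusted p below 0.05 the counts were again 0 and 1, against 9.84% and 9.32% of all genes. At an unadjusted p below 0.05 limma gave 2 members higher (RPS27 and RPL10) and 4 lower (RPL36A, RPS26, RPL17 and RPL6), and limma-voom on recovered reads again called 0 higher and 1 lower. The median log2 fold change was 0.04 for the 46 large and 0.06 for the 30 small subunit genes, beside 0.003 for all tested genes. The values were positive in 49 members and negative in 27, against 50.3% of all genes positive. RPKM are relative to each library, so a change in RNA per cell that is shared by all genes does not show in them. For 58 of the 76 members the 95% interval of the log2 fold change lay within 0.5 of no change on either side (37 large, 21 small), and the other 18 intervals reached beyond it. A shift of the size seen in the ribosome biogenesis genes below was therefore outside the interval of most members.

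RPL36A, a large subunit protein encoded on the X chromosome, had 3.51, 2.07 and 3.74 RPKM in the 3 DMSO libraries and 0.867, 1.30 and 1.95 RPKM in the FP54 libraries. All FP54 values were below all DMSO values, the nearest pair being 1.95 and 2.07 RPKM. The mean fell from 3.11 ± 0.901 to 1.37 ± 0.545 RPKM (SD, n = 3), a log2 fold change of -1.15 with an SE of 0.30 and an adjusted p of 0.0279 by limma. These RPKM rest on 30 to 257 reads per library. Without DMSO replicate 1, DMSO replicate 3, FP54 replicate 1 or FP54 replicate 2 the call was lost, with log2 fold changes of -1.04, -0.99, -0.88 and -1.14. RPL36AL, the paralog whose protein is nearly identical, was at 582, 680 and 717 RPKM with DMSO and 585, 813 and 462 RPKM with FP54, values that overlapped.

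Apart from RPL36A, the largest differences in either direction in MOLM-13 did not pass the cutoff. RPS27, a zinc finger protein of the small subunit, had 392, 350 and 325 RPKM with DMSO and 557, 406 and 496 RPKM with FP54, without overlap. Its log2 fold change was 0.44 (SE 0.16, adjusted p 0.075 by limma). RPS26, which contacts the mRNA at the exit channel, had 52.8, 41.4 and 49.1 RPKM with DMSO and 36.9, 26.3 and 40.3 RPKM with FP54, again without overlap and in the opposite direction. Its log2 fold change was -0.49 (SE 0.18, adjusted p 0.082 by limma). In all, 9 members had every FP54 library above every DMSO library and 6 had every one below, against 20.2% and 17.0% of all tested genes. Without FP54 replicate 2, the shallowest library, 2 members were called higher, RPS27 (0.57) and RPS28 (0.62), and none lower. Without FP54 replicate 3, RPS26 (-0.61) was called lower beside RPL36A (-1.42).

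**Figure D2:**
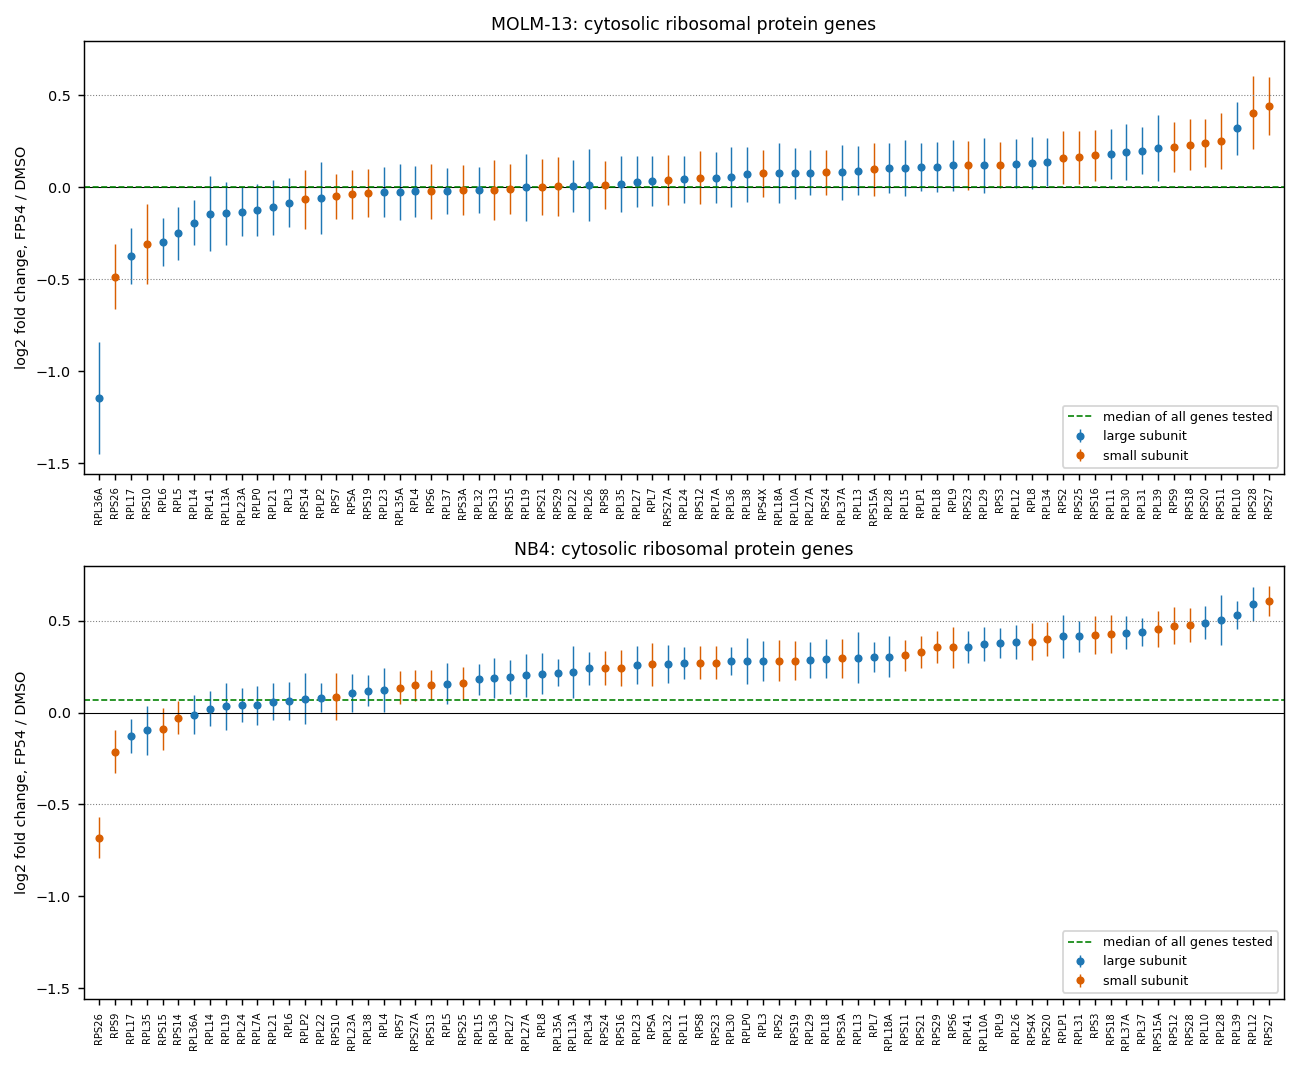
Log2 fold change of FP54 against DMSO (vertical) for the ribosomal protein genes named on the horizontal axis in MOLM-13 (top) and NB4 cells (bottom), ordered by value, with bars of 1 SE from limma, large subunit in blue and small subunit in orange. The dashed line is the median of all tested genes (0.003 and 0.07) and dotted lines mark 0.5 in either direction; most MOLM-13 members lie around 0, whereas most NB4 members lie above 0.

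In NB4 cells part of the ribosomal protein mRNAs were higher with FP54, mostly by small amounts. By the same rule 4 members were called higher (RPS27, RPL12, RPL39 and RPL28) and 1 lower (RPS26), where 18.6% and 10.7% of all tested genes were called. Most differences were below the minimum fold of that rule. At an adjusted p below 0.05 with no minimum fold, 37 members were higher, 20 of the large and 17 of the small subunit (48.7% of members), against 29.8% of all genes, and 1 was lower, against 22.0% of all genes. The median log2 fold change was 0.25 for the large and 0.28 for the small subunit genes, beside 0.07 for all tested genes, and 69 of 76 members were positive, against 55.8% of all genes. In 39 members all FP54 libraries were above all DMSO libraries and in 2 (RPS26 and RPL17) all were below, against 34.3% and 26.2% of all genes.

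These counts moved with the scaling and with single libraries. With median-ratio scaling of the libraries 2 members were called higher and 1 lower and 19 passed the adjusted p upward, and with quantile normalization 17 were called higher and 1 lower and 55 passed. Quantile normalization moved the median of all genes from 0.07 to -0.03. The direction of the median did not turn: 63 to 69 of the 76 members were positive under each of these scalings, with medians of 0.20 to 0.33. Without DMSO replicate 2 there were 10 upward calls, with RPL10, RPLP1, RPS3, RPS12, RPS15A and RPS28 beside the 4 above, and 58 members passed the adjusted p. Without FP54 replicate 1 they were 2 and 23, and without FP54 replicate 2 the second count was 22.

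RPS27 had 179, 190 and 175 RPKM with DMSO and 294, 278 and 257 RPKM with FP54 in NB4 cells. The groups lay far apart, and the log2 fold change was 0.61 (SE 0.08, adjusted p 0.000194 by limma). RPL12, at the base of the stalk that binds translation factors, had 258, 305 and 256 RPKM with DMSO and 432, 402 and 397 RPKM with FP54. This was a mean of 273 ± 27.7 against 410 ± 18.9 RPKM (SD, n = 3), a log2 fold change of 0.59 (SE 0.09, adjusted p 0.000443 by limma).

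RPL39, a small protein in the wall of the peptide exit tunnel and encoded on the X chromosome, had 69.5, 69.0 and 70.5 RPKM with DMSO and 106, 101 and 95.5 RPKM with FP54. The DMSO values were nearly equal and every FP54 value was higher, with a log2 fold change of 0.53 (SE 0.08, adjusted p 0.000257 by limma). RPL28 had 54.9, 66.7 and 42.6 RPKM with DMSO and 77.3, 76.3 and 75.5 RPKM with FP54. Its DMSO libraries were spread widely, and the log2 fold change of 0.50 (SE 0.14, adjusted p 0.0105 by limma) was at the cutoff itself. Under median-ratio scaling RPL39 (0.47) and RPL28 (0.44) fell short of the minimum fold. RPL28 also lost its call without DMSO replicate 3, at 0.33, and without FP54 replicate 1, 2 or 3, where the log2 fold change stayed at 0.49, 0.50 and 0.51 and the unadjusted p of limma was 0.0166, 0.0115 and 0.0103, and RPL39 without FP54 replicate 1, at 0.50.

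RPS26 was the member that fell in NB4 cells. It had 83.2, 106 and 91.1 RPKM with DMSO and 64.9, 57.1 and 52.2 RPKM with FP54, with no overlap. The mean went from 93.2 ± 11.3 to 58.1 ± 6.39 RPKM (SD, n = 3), a log2 fold change of -0.68 (SE 0.11, adjusted p 0.000532 by limma). The call held under every alternative scaling and without each library in turn, with values from -0.76 to -0.59 over the latter. In both lines RPS26 thus had no overlap between treatments and its FP54 values were the lower ones, although only in NB4 did the difference pass the cutoff.

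**Figure D3:**
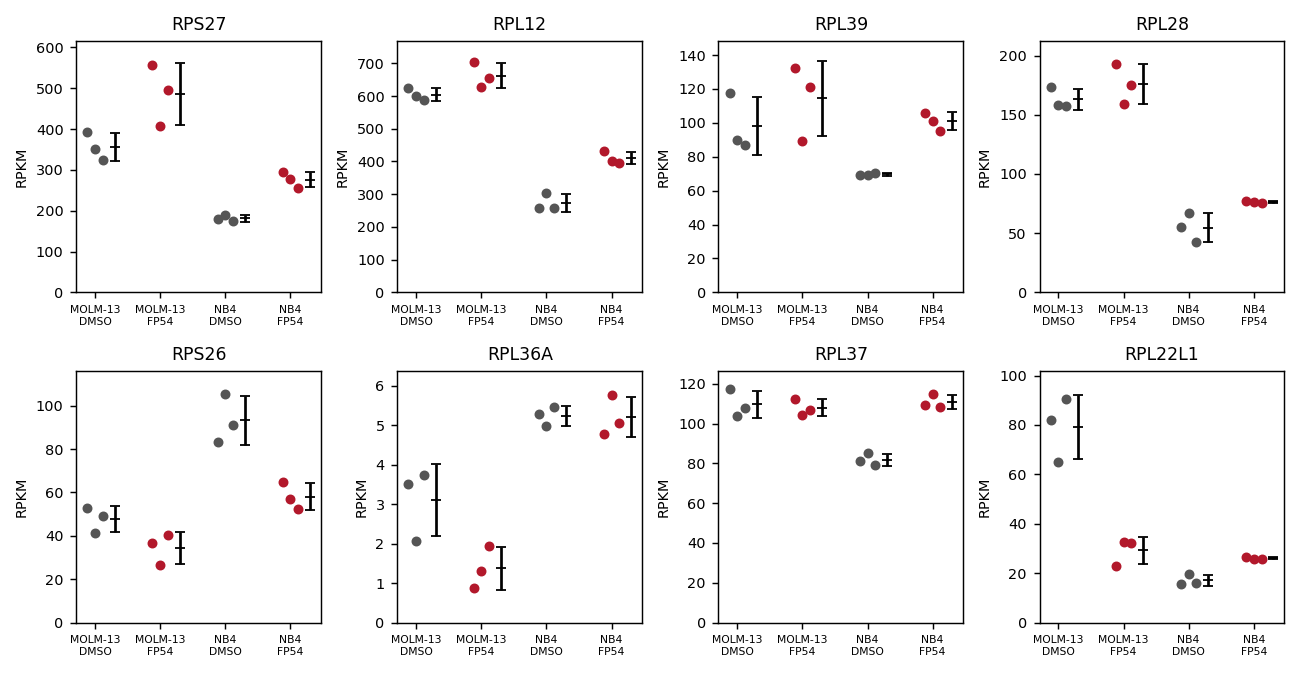
RPKM of 8 genes in each library (points; grey DMSO, red FP54), with the mean and SD of 3 libraries beside them, in MOLM-13 and NB4 cells. RPS27 is higher with FP54 in all libraries of both lines and RPS26 lower in all, RPL36A is lower with FP54 in MOLM-13 only, and RPL22L1 goes down in MOLM-13 and up in NB4.

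Members that point the other way from the bulk in NB4 were few. Besides RPS26 the negative log2 fold changes were those of RPS9 (-0.21), RPL17 (-0.13), RPL35 (-0.10), RPS15 (-0.09), RPS14 (-0.03) and RPL36A (-0.01), none past the cutoff or an adjusted p of 0.05. RPS14, a small subunit protein of the exit channel whose loss marks a form of myelodysplasia, had 95.6, 116 and 107 RPKM with DMSO and 102, 109 and 102 RPKM with FP54. These values overlapped. The 95% interval lay within 0.5 of no change on either side for 41 of the 76 members in NB4.

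By role, no member of the lists below passed the cutoff in MOLM-13 cells. In the stalk (RPLP0, RPLP1, RPLP2 and RPL12), which recruits elongation factors, 0 of 4 passed the cutoff, and the log2 fold changes ran from -0.12 to 0.13. RPL5 and RPL11, which bind the 5S RNA and, when unassembled, the p53 ligase MDM2, had -0.25 (SE 0.14) and 0.18 (SE 0.13). In the exit tunnel list (RPL17, RPL19, RPL23A, RPL26, RPL31, RPL35 and RPL39) 0 of 7 passed, with a median of 0.01. The entry channel proteins RPS2 and RPS3 had 0.16 and 0.12, and at the exit channel RPS14, RPS28 and RPSA had -0.06, 0.41 and -0.04, beside RPS26 above. Of RPS2, RPS3, RPS10 and RPS20, which are ubiquitylated when ribosomes stall, none passed either.

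By role in NB4 cells, 2 of 4 stalk genes passed an adjusted p of 0.05 upward, RPLP1 (0.41) and RPL12, beside 48.7% of all members. Differences between the role lists were not tested. Their partner RPLP2 was at 807, 1158 and 786 RPKM with DMSO and 991, 987 and 880 RPKM with FP54, which overlapped. RPL11 passed at 0.27 and RPL5 had 0.16 (adjusted p 0.26 by limma). In the exit tunnel list 3 of 7, RPL26, RPL31 and RPL39, passed, RPL31 at 0.42, whereas RPL17 and RPL35 were negative. RPS3 passed at 0.42 and RPS2 had 0.28 (adjusted p 0.058 by limma). At the exit channel RPS28 (0.48) passed the threshold upward and RPS26 downward. Of the 19 tested Diamond-Blackfan genes 12 (63.2%) passed upward in NB4, beside 48.7% of all members and 29.8% of all genes. RPS26 passed downward, where 22.0% of all genes did, and RPS19, the main one, had 0.28 (SE 0.10). In MOLM-13 0 of these 19 passed in either direction, against 9.84% and 9.32% of all genes, and their median was 0.03.

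The summed RPKM of the large subunit was 19559, 20166 and 20212 with DMSO and 19964, 21077 and 18855 with FP54 in MOLM-13 libraries. That of the small subunit was 12732, 11973 and 11961 with DMSO and 13331, 12728 and 13174 with FP54. Both pairs of groups overlapped. The large to small ratio was 1.64 ± 0.0871 and 1.53 ± 0.115 (SD, n = 3), values that also overlapped between libraries. Members took 9.24, 9.34 and 9.25% of the reads on genes with DMSO and 9.55, 9.62 and 9.13% with FP54. The FP54 libraries at 9.55, 9.62 and 9.13% had totals of 19191055, 5829730 and 12028682 reads. The part of depth in these shares was not tested.

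In NB4 libraries the large subunit summed to 11657, 15271 and 12544 RPKM with DMSO and 15704, 14967 and 14372 RPKM with FP54, and the small subunit to 7660, 9377 and 8273 RPKM with DMSO and 11055, 10446 and 9918 RPKM with FP54. The small subunit did not overlap between treatments, while for the large subunit DMSO replicate 2 stood among the FP54 libraries. The ratio was 1.56 ± 0.0633 with DMSO and 1.43 ± 0.0143 with FP54 (SD, n = 3), without overlap. It rested on a few genes, since without the 5 most abundant members of each subunit it was 2.05 in both groups. The share of reads was 5.85, 7.51 and 6.34% with DMSO and 8.11, 7.67 and 7.40% with FP54, where DMSO replicate 2 lay above FP54 replicate 3. The part of depth, or of the number of genes listed at 0, in the NB4 values was not tested.

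**Figure D4:**
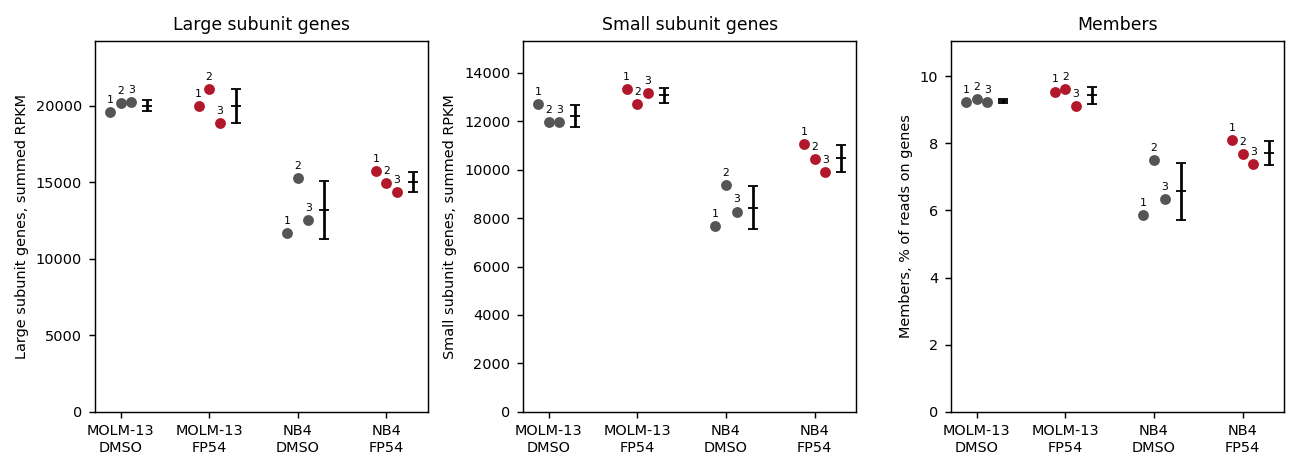
Summed RPKM of the large subunit genes (left) and small subunit genes (middle) and the percent of reads on genes taken by all members (right) in each library (points, labelled with the replicate number; grey DMSO, red FP54), with mean and SD of 3 libraries. MOLM-13 groups overlap in both sums, and in NB4 DMSO replicate 2 lies nearer to the FP54 libraries than DMSO replicates 1 and 3 do.

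The response to FP54 was compared between the lines by the interaction term of a joint limma fit to all 12 libraries, for the 8849 genes that passed the filter in each line. With the adjusted p held below 0.05, the response of 2 members was higher in NB4 than in MOLM-13, where 10.5% of all genes were, and of none lower, where 3.75% were. These 2 were RPL36A, by 1.13 on the log2 scale (SE 0.35, adjusted p 0.0413 by limma), and RPL37, by 0.46 (SE 0.14, adjusted p 0.0360 by limma). RPL37, a zinc-binding large subunit protein, had 117, 104 and 108 RPKM with DMSO and 113, 105 and 107 RPKM with FP54 in MOLM-13, and 81.0, 85.2 and 79.1 RPKM with DMSO and 109, 115 and 108 RPKM with FP54 in NB4. Only the NB4 groups were apart. RPL36A in NB4 had 5.28, 4.97 and 5.46 RPKM with DMSO and 4.78, 5.76 and 5.06 RPKM with FP54, which overlapped. Over all members the difference was positive in 68 of 76, with a median of 0.20 beside 0.08 for all genes. By limma 7 members had an unadjusted p below 0.05 (6 higher and 1, RPS9, lower in NB4), and limma-voom on recovered reads called 3 higher and 0 lower. For most members a difference between the lines was thus not detected. Both calls depended on single libraries: leaving out 1 library at a time left 0 to 3 members past the threshold.

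The members were set beside other lists of genes. Those of the mitochondrial ribosome, which are encoded in the nucleus and make a separate ribosome, had a median log2 fold change of -0.27 in MOLM-13 and -0.50 in NB4. Of 70 tested in MOLM-13, 2 were called higher and 7 lower, the latter near the 9.04% of all genes. Of 73 tested in NB4, none was called higher by limma and 36 were called lower, against 10.7% of all genes. The 13 ribosome biogenesis genes of the study share MRPL36 with the mitochondrial list. They had medians of -1.11 and -0.76, with 11 and 13 called lower. The study drew these 13 genes from those that were lower in these NB4 libraries and in a separate knockdown of FTO in NB4 cells. Their NB4 values are therefore no independent evidence of their direction. Chaperones that escort new ribosomal proteins to the nucleus had medians of -0.76 and -0.48 over 7 genes, 6 of them negative and 1 positive in each line. Of these chaperones 1 was called lower in MOLM-13 and 3 in NB4, against 9.04% and 10.7% of all genes. Among them PDCD2L, a relative of the RPS2 chaperone PDCD2, was called lower in both lines (-0.79 and -0.83), and GRWD1, which escorts RPL3, was called lower in NB4 (-1.02) and had -1.03 in MOLM-13 at an adjusted p of 0.069 by limma.

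Other mRNAs, from a list of terminal oligopyrimidine mRNAs, had a median close to those of the ribosomal proteins in NB4. Of the 17 listed genes 12 had an entry among the starts, and 10 of these held a run by the rule above. The 16 tested genes of the list had a median of 0.32 in NB4. Of these, 10 passed an adjusted p of 0.05 upward and 0 downward, against 29.8% and 22.0% of all genes. In MOLM-13 the median was -0.04, with 1 in each direction, against 9.84% and 9.32% of all genes. In NB4 14 of the 16 were positive and 2 negative, and the examples that follow are positive ones. Examples in NB4 were TPT1 (0.64), a translationally controlled tumour protein, EEF2 (0.45), the translocation factor, PABPC1 (0.47), which binds poly(A) tails, and RACK1 (0.43), which sits on the small subunit. In MOLM-13 TPT1 had 0.38 (adjusted p 0.070 by limma), and EEF2, PABPC1 and RACK1 had 0.00, -0.15 and -0.01. EEF1G was listed at 0 in all 12 libraries and was not tested. Within the ribosomal protein genes, the 53 with a run at a start had a median of 0.26 in NB4 and 0.05 in MOLM-13. The 9 without one, RPS26 among them, had 0.18 and 0.005, and the 15 with no entry had 0.28 and 0.09 over the 14 tested.

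**Figure D5:**
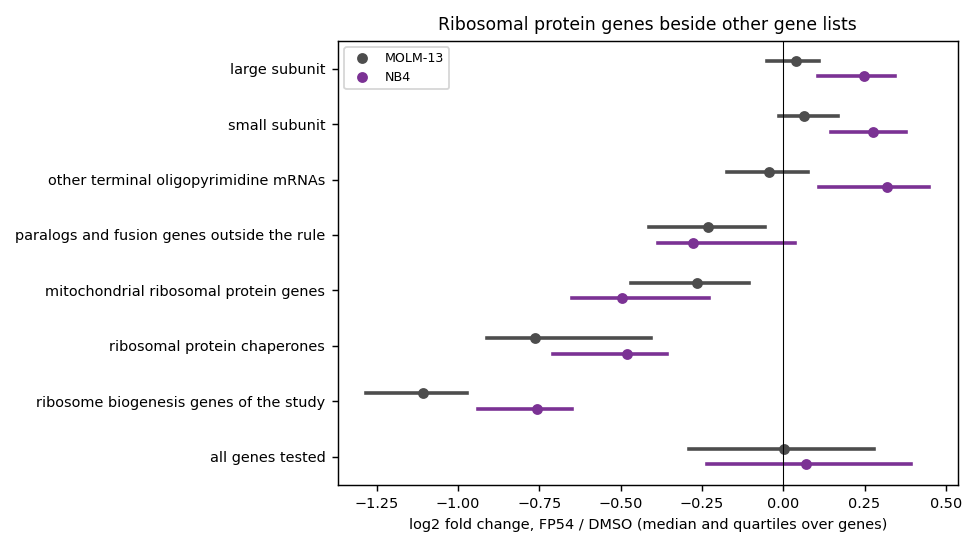
Median (point) and quartiles (bar) of the log2 fold change of FP54 against DMSO over the genes of each list, in MOLM-13 (grey) and NB4 (purple). The 2 subunits lie at 0.04 and 0.06 in MOLM-13 and at 0.25 and 0.28 in NB4, to the right of the mitochondrial ribosomal proteins (-0.27 and -0.50) and of the ribosome biogenesis genes (-1.11 and -0.76).

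Paralogs and fusion genes that the symbol rule leaves out gave the largest values of the family. RPL22L1, the paralog of RPL22, had 82.2, 65.1 and 90.5 RPKM with DMSO and 22.9, 32.8 and 32.1 RPKM with FP54 in MOLM-13. In NB4 it had 15.7, 19.5 and 16.0 RPKM with DMSO and 26.4, 25.9 and 25.8 RPKM with FP54. So it fell to 36.9% of its DMSO mean in the first line (log2 fold change -1.44, SE 0.18, adjusted p 0.0019 by limma) and rose to 152% in the second (0.61, SE 0.10, adjusted p 0.000509 by limma). The interaction was 2.05 (SE 0.22, adjusted p 2.15e-05 by limma). RPL22 itself differed little, with 30.7 ± 1.93 against 30.9 ± 3.96 RPKM in MOLM-13 and 20.1 ± 0.648 against 21.3 ± 0.737 RPKM in NB4 (SD, n = 3), and its log2 fold changes were 0.01 (95% interval -0.31 to 0.32) and 0.08 (-0.10 to 0.26).

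RPL26L1 and RPL36AL, paralogs of RPL26 and RPL36A, were called lower in NB4, with log2 fold changes of -0.76 and -0.57, while RPL26 was higher there (0.38, adjusted p 0.00493 by limma). In MOLM-13 they had -0.34 and -0.12 and were not called. Without NB4 DMSO replicate 2 RPL36AL had -0.41 and was no longer called. RPL39L, a paralog of RPL39, had 0.43 in NB4 (adjusted p 0.00218 by limma) and -0.51 in MOLM-13 (adjusted p 0.139 by limma), on 20 to 141 reads per library in the latter. FAU, which encodes a ribosomal protein joined to a ubiquitin-like protein, had 0.05 in MOLM-13 and -0.31 in NB4, with no call.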

How the data were processed

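Of the 22 samples in the labels, the 12 RNA-seq libraries were used, and the 10 samples of m6A-seq or polysome-seq are not analysed here. The authors trimmed reads with cutadapt 4.8, removed duplicates with Clumpify, aligned to hg38 with STAR 2.7.11b, counted protein-coding GENCODE genes with featureCounts 2.0.3 and deposited RPKM, 1 table per cell line. Removal of duplicates can lower the counts of abundant short genes; this was not tested. The gene length behind the RPKM is not given in the sources used here. Lengths of GENCODE v44 gave whole reads (within 0.05) for 98.5 to 99.2% of values of 1 to 50 reads, over the 12 libraries.

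Genes whose RPKM averaged 1 or more were kept, and log2(RPKM + 0.1) was fitted with limma 3.58.1 (R 4.3.3; lmFit, eBayes with a trend) over all genes of each table. Adjusted p are those of Benjamini and Hochberg over all genes fitted. An exact permutation test of 3 against 3 libraries cannot give a two-sided p below 0.1. Members and lists were chosen with earlier results of these data known. No test was made over a list. A few genes of the tables and lists are not reported here. Named genes are all members called, role and comparison lists with examples, and the 3 most and least abundant members; other names were chosen after their values were seen. The alternatives tried were other pseudocounts (0.01, 1), other filters (none, 5 RPKM), median-ratio and quantile scaling, a replicate block, eBayes without a trend, other cutoffs, limma-voom on recovered reads and leaving out each library.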

Additional observations from a re-analysis of the deposited data

Results flagged for a closer look

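The response to FP54 differed between the lines, by the interaction test of limma at an adjusted p below 0.05, for the members RPL36A (1.13 on the log2 scale, NB4 minus MOLM-13) and RPL37 (0.46), and for the paralogs RPL22L1 (2.05) and RPL39L (0.93). RPL22L1 went down in all 3 MOLM-13 FP54 libraries and up in all 3 NB4 FP54 libraries, and its interaction held without each library in turn, with values from 1.88 to 2.19. RPL36A rests on at most 257 reads per library in MOLM-13, and RPL39L on at most 141. Their interactions lay between 0.86 and 1.41 and between 0.72 and 1.11 when 1 library was left out, and fell short of the threshold in 10 and in 4 of these 12 fits. That of RPL37 lay between 0.41 and 0.50 and fell short in 8 of the 12.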

How the results depend on the processing

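None of the medians of the subunits and none of the called members changed sign under the alternatives tried, and RPS26, RPS27 and RPL12 kept their calls in NB4 in each of them. Single members did: 63 to 69 of the 76 were positive in NB4 and 44 to 51 in MOLM-13 over the scalings. The median of all genes, 0.003 in MOLM-13, was -0.008 with median-ratio scaling. In MOLM-13, a filter at 5 RPKM, which removes RPL36A, left 0 members called lower and 0 past the adjusted p downward, and no filter also left 0 past the adjusted p. In NB4, median-ratio scaling, over all genes or over genes that are no members, left 2 members called higher and 19 past the adjusted p upward, quantile normalization gave 17 called higher and 2 past the adjusted p downward, and an adjusted p with no minimum fold gave 37. Without the 5 most abundant members of each subunit the difference in the NB4 ratio of subunits was -0.000772. The interaction called 1 member with the filter at 5 RPKM, with either median-ratio scaling and without a trend, and 10 with quantile normalization. The cause was not tested.

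Leaving out 1 library at a time gave ranges of 0 to 2 members called higher and 0 to 2 lower in MOLM-13, 0 to 3 and 0 to 2 past the adjusted p, and medians of 0.01 to 0.07 (large) and 0.04 to 0.12 (small subunit). In NB4 they were 2 to 10 and 1 to 1 called, 22 to 58 and 1 to 2 past the adjusted p, and medians of 0.16 to 0.31 and 0.19 to 0.37. The interaction called 0 to 3 members.

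No pairing of the libraries by replicate number was seen. Deviations from the group means correlated between libraries of the same number at -0.26 to -0.06 in MOLM-13 and -0.14 to 0.12 in NB4. In these lines 0 and 2 of 6 libraries were closest to their own number. With 3 libraries per group this check cannot decide whether they were paired by design. With the number as a block 29 members passed the adjusted p upward in NB4, and 1 was called by the interaction.

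The lowest depth, 5829730 reads in MOLM-13 FP54 replicate 2, limits members with few reads, foremost RPL36A and RPS10. The 95% intervals of 18 members in MOLM-13 and 35 in NB4 reached beyond 0.5 of no change. The median SE of the members was 0.140 in MOLM-13 and 0.099 in NB4. Their median log2 fold change was 0.05 in MOLM-13 and 0.27 in NB4, so the NB4 intervals were narrower but lay further from 0.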
